A study of Mus musculus with 4 samples.

Results

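Genes of the TGF-beta and BMP pathway were compared between LT-HSC, the long-term haematopoietic stem cells of mouse bone marrow, and ST-HSC, the short-term ones. The pathway was taken as a list of 37 gene symbols covering ligands, receptors, Smad proteins and feedback genes, and each gene was read from its brightest probe set named for that symbol alone. Of the 37 symbols, 36 had such a probe set, out of 18193 genes named on the arrays, and the other, Lrrc32, was not analysed here. The 36 genes were read by 87 probe sets, and 28 of the 36 were bright enough to be tested.

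Both fractions were sorted as lineage-negative, cKit+, Sca1+ and CD135- marrow cells, with CD34- cells taken as LT-HSC (2 arrays, replicates 1 and 2) and CD34+ cells as ST-HSC (2 arrays, replicates 2 and 3). All mice were control animals of C57BL/6 background that lacked the Mx-Cre transgene and were given poly(I:C), a double-stranded RNA that induces interferon, 7 times on alternate days. Both LT-HSC samples and ST-HSC replicate 2 were from mice aged 7.5 weeks whose treatment had ended 4 weeks earlier, and ST-HSC replicate 3 came at 8.5 weeks of age with a gap of 3 weeks. The study compared normal LT-HSC with normal ST-HSC. Nothing in the labels says whether animals were pooled or whether the LT-HSC samples came from separate animals, so the p-values measure only the spread between these samples, which may be technical.

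Ligands of this family bind pairs of type I and type II receptor kinases at the cell surface, and the activated type I receptor phosphorylates receptor Smads, which enter the nucleus with the shared partner Smad4. TGF-beta and activin signals run mainly through Smad2 and Smad3, and BMP signals through Smad1, Smad5 and Smad9. In bone marrow, TGF-beta is known for holding stem cells out of the cell cycle, and Smad-induced inhibitors such as Smad6, Smad7 and Skil close the loop.

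Values per array are the deposited intensities, which have no unit and can be compared between arrays for 1 probe set but not between probe sets. Differences are LT-HSC minus ST-HSC on the quantile-normalized log2(intensity + 16) scale with the moderated standard error (SE), and a gene passed where limma's adjusted p over all probe sets was under 0.05. The median intensity lay between 19.1 and 28.3 on the 4 arrays. Cd34, which separated the gates, read 18.3 and 23.5 on LT-HSC arrays, against 841 and 1142 on ST-HSC arrays, as the labels have it. Kit, also a sort marker, read 397 and 382 on LT-HSC arrays, against 684 and 907 on ST-HSC arrays (difference -1.02, SE 0.26, adjusted p = 0.0498). It did not pass when each array was centred on its median (adjusted p = 0.129). The sort marker Flt3 read 62.3 and 53.4, against 258 and 134, and did not pass (difference -1.37, SE 0.38, adjusted p = 0.0631). Stem cell markers were present in both groups (7 of 8 measured, none at 0, only Kit lower in LT-HSC), with sums of 5311 and 3664 on LT-HSC arrays, against 7484 and 4343 on ST-HSC arrays. The list of plasma and B cell markers, cells that the lineage gate should remove, summed to 37803 and 38033 on LT-HSC arrays, against 1754 and 2990 on ST-HSC arrays (8 of 9 markers measured, 7 higher in LT-HSC, none at 0). Neutrophil markers (6 of 6 measured, none at 0; 0 passed in limma and 2 had an unadjusted p under 0.05) summed to 3793 and 466 in LT-HSC against 3406 on ST-HSC replicate 2 and 47590 on ST-HSC replicate 3. For macrophages and monocytes the sums were 1245 and 880 on LT-HSC arrays, against 564 and 662 on ST-HSC arrays (7 of 7 measured, 1 higher in LT-HSC, C1qa at 0 on LT-HSC replicate 1). Those of T and NK cells were 296 and 592, against 1307 and 1437 (5 of 6 measured, 2 higher and 1 lower). Those of erythroid cells were 339 and 613, against 146 and 822 (4 of 6 measured, 1 higher). For the ST-HSC samples the tissue label names LT-HSC although its gate is CD34+, so their titles were followed.

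Of the 28 pathway genes tested, 1 was higher in LT-HSC (Skil), 2 were lower (Tgfb1 and Smad1) and 25 did not pass. That is 10.7% of the genes tested, a share near the background of 14.3% of all 12832 genes tested by their brightest probe set. By direction, the background was 7.92% of all genes higher and 6.41% lower in LT-HSC. The median log2 difference was -0.35 over the pathway genes and -0.08 over all genes, with 9 pathway genes above 0 and 19 below. On the normalized scale both arrays of one group lay above both of the other for 20 of the 28 genes (71.4%), against 64.3% of all genes. An unadjusted p under 0.05 was reached by 5 of the 28 genes, against 33.1% of all genes.

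**Figure D1:**
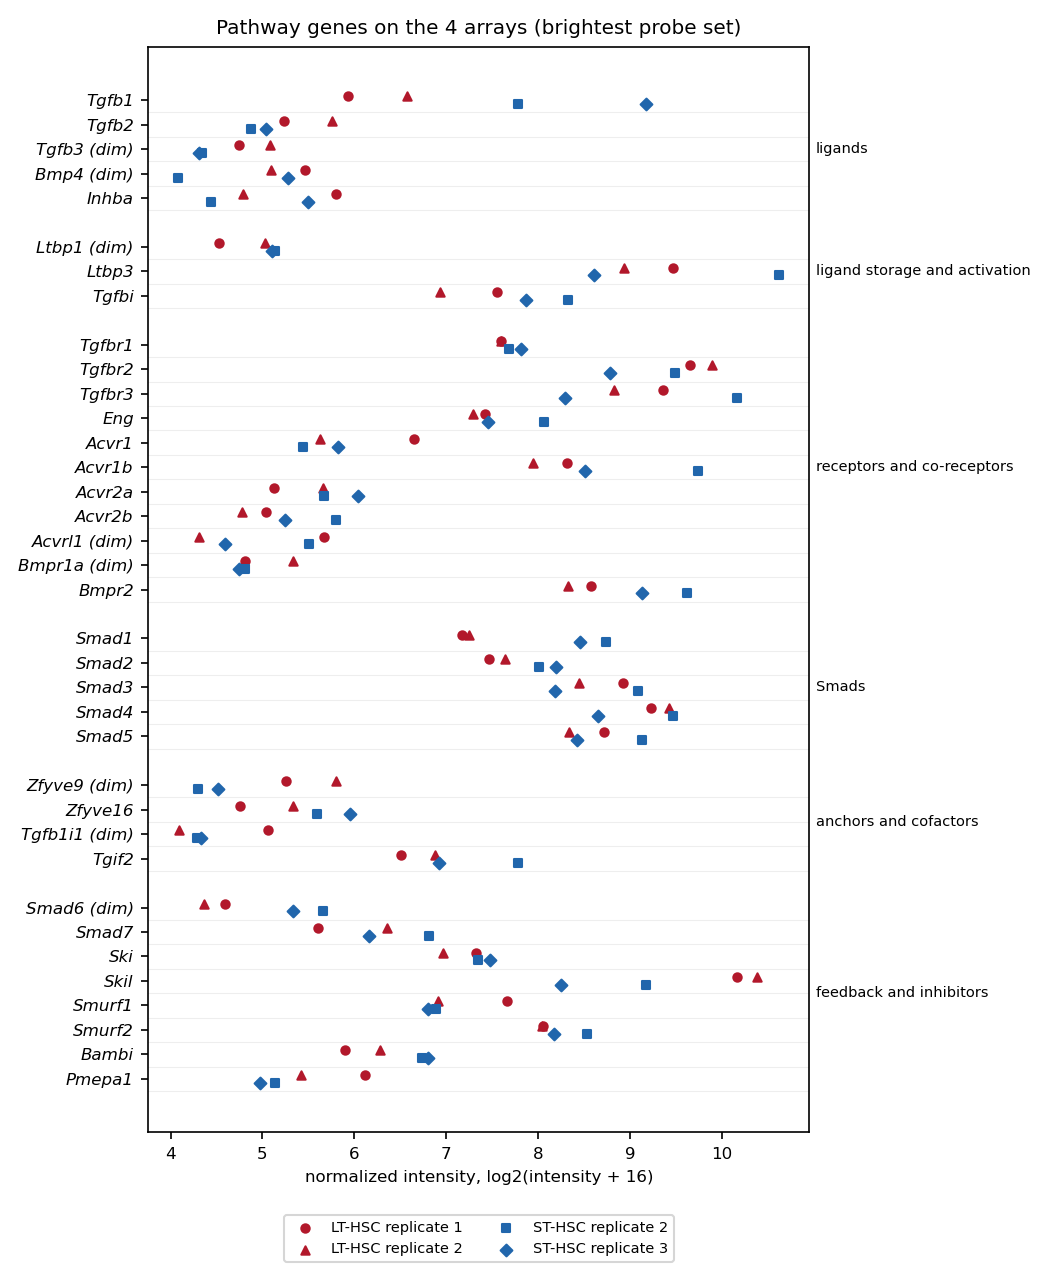
Normalized intensity, log2(intensity + 16), of the 36 pathway genes on the 4 arrays, by role, with LT-HSC arrays in red above and ST-HSC arrays in blue below in each row. Genes marked dim were too faint to be tested, and levels should not be compared between rows. Tgfb1 and Smad1 have both LT-HSC points left of both ST-HSC points, and Skil has them on the right.

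Among the ligands, Tgfb1, the main TGF-beta of blood cells and platelets, was 4.67-fold lower in LT-HSC. It read 35.9 and 84.1 on LT-HSC arrays, against 221 and 571 on ST-HSC arrays, so the groups did not overlap, and ST-HSC replicate 3 was the highest array. The log2 means were 6.25 ± 0.45 in LT-HSC and 8.48 ± 0.99 in ST-HSC (SD, n = 2 each), with a difference of -2.22 (SE 0.51, adjusted p = 0.0371). In bulk samples such as these, fewer cells of a type and less RNA per cell cannot be told apart. The array with the highest Tgfb1 was also the one with the highest neutrophil sum. Without ST-HSC replicate 3 the difference was -1.52. Markers of megakaryocytes and platelets summed to 804 and 1252 on LT-HSC arrays, against 3221 and 1921 on ST-HSC arrays (6 of 6 measured, 2 of them lower in LT-HSC and none higher, none at 0). The macrophage and monocyte sums and the plasma and B cell sums given above were higher on LT-HSC arrays. The part of these cell types in the Tgfb1 difference was not tested. A second, dimmer Tgfb1 probe set read 31.7 and 67.3 on LT-HSC arrays, against 127 and 33.8 on ST-HSC arrays, where the groups overlapped (difference -0.27, adjusted p = 0.745). Tgfb1 no longer passed with LT-HSC replicate 1 left out (adjusted p = 0.274), nor with LT-HSC replicate 2 left out (adjusted p = 0.134).

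The other ligands gave no call. Tgfb2, a TGF-beta of mesenchymal and neural tissue, read 16.4 and 42.6 on LT-HSC arrays, against 14.1 and 18.2 on ST-HSC arrays (difference 0.54, SE 0.33, adjusted p = 0.314). Inhba, the activin A subunit, read 31.3 and 13.7 on LT-HSC arrays, against 6.41 and 29.6 on ST-HSC arrays, with overlapping groups (difference 0.33, adjusted p = 0.692). Tgfb3 and Bmp4 were too dim to be tested, with at most 20.6 and 23.8 on any array.

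Latent TGF-beta is stored in the matrix on binding proteins of the Ltbp family. Ltbp3, which carries latent TGF-beta out of the cell, read 712 and 477 on LT-HSC arrays, against 1414 and 374 on ST-HSC arrays. The ST-HSC arrays lay on either side of the LT-HSC arrays, and this was the widest spread of any tested pathway gene within a group (SD 1.42 on the log2 scale; difference -0.41, SE 0.61, adjusted p = 0.683). Without ST-HSC replicate 3 it passed at -1.45, and without ST-HSC replicate 2 it was 0.62 and did not pass (adjusted p = 0.0585). Ltbp1 was too dim to be tested. Tgfbi, a secreted matrix protein induced by TGF-beta, read 155 and 110 on LT-HSC arrays, against 320 and 217 on ST-HSC arrays (difference -0.85, SE 0.36, adjusted p = 0.162), and passed without ST-HSC replicate 3. Of its 4 tested probe sets 3 lay between -1.14 and -0.80 and the other at 0.26. Stromal and fibroblast markers, cells that make Tgfbi and Ltbp proteins, summed to 193 and 241 on LT-HSC arrays, against 485 and 458 on ST-HSC arrays (9 of 9 measured, 1 lower in LT-HSC, none at 0). Pdgfrb, the 1 that was lower, made up most of that gap: without it the 8 others, a sum chosen after the data were seen, gave 183 and 210 on LT-HSC arrays, against 174 and 307 on ST-HSC arrays. Their part in these values was not tested.

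None of the 9 tested receptors and co-receptors passed (0 of 9 in limma, against 14.3% of all genes). Of the 9, 1 had an unadjusted p under 0.05, against 33.1% of all genes. Tgfbr1, the type I TGF-beta receptor, read 160 and 179 on LT-HSC arrays, against 207 and 208 on ST-HSC arrays. The groups did not overlap, but the difference was small at -0.15 (SE 0.29, 95% interval -0.84 to 0.54, adjusted p = 0.76). Tgfbr2, the type II receptor that binds the ligand first, read 825 and 967 on LT-HSC arrays, against 670 and 426 on ST-HSC arrays, with both LT-HSC arrays above. Its difference of 0.64 (SE 0.31, 95% interval -0.10 to 1.37) did not pass (adjusted p = 0.216). The value differed between the ST-HSC arrays: it was 1.03 without replicate 2 and 0.29 without replicate 3. With LT-HSC replicate 1 or 2 left out, it was 0.73 and 0.51. Eng (endoglin, a TGF-beta co-receptor of endothelium and stem cells) read 140 and 143 on LT-HSC arrays, against 267 and 159 on ST-HSC arrays. The groups did not overlap, with a difference of -0.40 (SE 0.33, 95% interval -1.19 to 0.39, adjusted p = 0.456), and its second probe set lay at -0.85 (adjusted p = 0.124). Endothelial markers summed to 405 and 469 on LT-HSC arrays, against 911 and 593 on ST-HSC arrays (7 of 7 measured, none at 0; 0 passed in limma and 2 had an unadjusted p under 0.05), and their part in Eng was not tested.

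The activin and BMP receptors mostly lay below 0 without passing. Bmpr2, the type II BMP receptor, came nearest to the threshold, with 356 and 306 on LT-HSC arrays, against 717 and 552 on ST-HSC arrays. Its difference was -0.92 (SE 0.29, 95% interval -1.62 to -0.23, adjusted p = 0.0866), and it passed with either ST-HSC array left out, replicate 2 (adjusted p = 0.0215) or replicate 3 (adjusted p = 0.000803). Bmpr2 did not pass with LT-HSC replicate 1 (adjusted p = 0.414) or LT-HSC replicate 2 (adjusted p = 0.433) left out. Acvr1b (ALK4, the type I activin receptor) read 291 and 231 on LT-HSC arrays, against 784 and 348 on ST-HSC arrays (difference -1.0, SE 0.43, adjusted p = 0.175). The ST-HSC arrays differed: the value was -1.61 without ST-HSC replicate 3 (adjusted p = 0.000127) and -0.40 without ST-HSC replicate 2 (adjusted p = 0.256). The type II activin receptors Acvr2a and Acvr2b lay at -0.47 and -0.61. Acvr1 (ALK2, a type I BMP receptor) lay at 0.51 on its brightest probe set and at -0.74 and -1.09 on its 2 others, none of which passed. Tgfbr3 (betaglycan, which presents ligand to the other receptors) read 664 and 441 on LT-HSC arrays, against 1030 and 294 on ST-HSC arrays. Its difference of -0.13 turned to 0.07 when the arrays were centred on their medians, and it passed at 0.84 without ST-HSC replicate 2 and at -1.08 without ST-HSC replicate 3. Acvrl1 and Bmpr1a, type I receptors of endothelium and of BMP signalling, were too dim to be tested on any of their 2 and 6 probe sets.

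Of the 5 Smads of the signalling core, Smad1 was lower in LT-HSC and 4 did not pass (20% called, against 14.3% of all genes). Smad1, which carries BMP signals, read 112 and 139 on LT-HSC arrays, against 418 and 332 on ST-HSC arrays. All LT-HSC values lay below all ST-HSC values, and both pairs were tight. The log2 means were 7.21 ± 0.06 in LT-HSC and 8.60 ± 0.20 in ST-HSC (SD, n = 2 each), a 2.61-fold difference (-1.39, SE 0.29, adjusted p = 0.03). Of its 2 other probe sets, the first also passed at -1.78 (adjusted p = 0.0148) and the second lay at -0.67 (adjusted p = 0.259). The LT-HSC arrays, low in Smad1, had the high plasma and B cell marker sums, whose part in this difference was not tested. The size of the Smad1 difference stayed between -1.52 and -1.28 with any array left out, but it did not pass with LT-HSC replicate 1 left out (adjusted p = 0.312) or LT-HSC replicate 2 left out (adjusted p = 0.213).

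Smad2, the TGF-beta and activin Smad, read 144 and 185 on LT-HSC arrays, against 256 and 276 on ST-HSC arrays (difference -0.55, SE 0.29, adjusted p = 0.257). Its other tested probe set passed at -1.27 (adjusted p = 0.0443), with 18.9 and 38.8 on LT-HSC arrays, against 111 and 87.7 on ST-HSC arrays, and with probe sets averaged per gene Smad2 was called lower. Smad4, the partner of all receptor Smads, read 601 and 674 on LT-HSC arrays, against 660 and 384 on ST-HSC arrays. The groups overlapped, with a difference of 0.27 (SE 0.33, 95% interval -0.52 to 1.06, adjusted p = 0.622), and its 2 other probe sets lay at 0.04 and -0.01. Smad4 lay at 0.72 without ST-HSC replicate 2 and at -0.14 without ST-HSC replicate 3. Smad3 (0.05, 95% interval -0.86 to 0.95) and Smad5 (-0.25, 95% interval -1.06 to 0.56) also had overlapping groups.

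**Figure D2:**
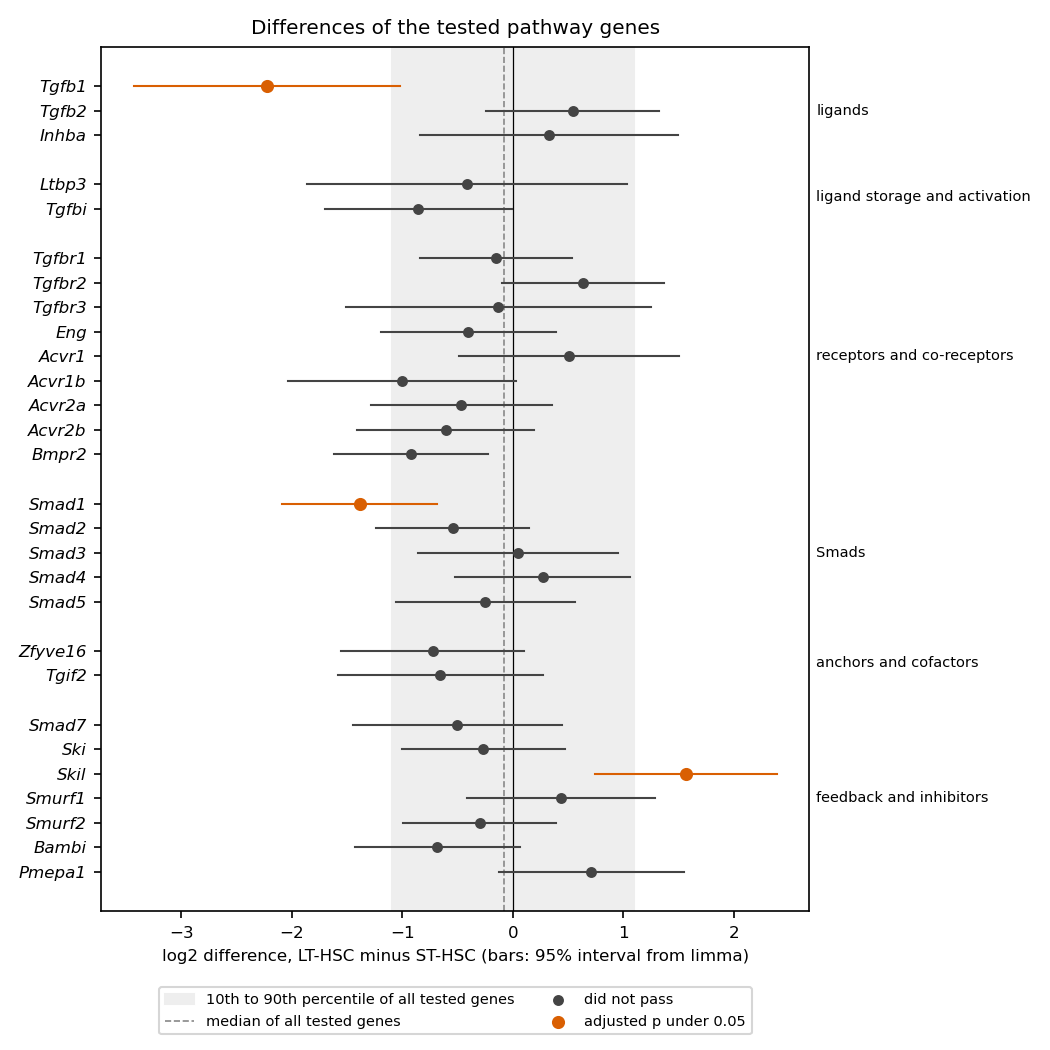
Log2 difference, LT-HSC minus ST-HSC, of the 28 tested pathway genes with 95% intervals from limma, by role. The grey band spans the 10th to 90th percentile of all tested genes, -1.10 to 1.10, and the dashed line is their median, -0.08. Tgfb1, Smad1 and Skil, in orange, passed and lie outside the band.

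Among the inhibitors, Skil (SnoN, a corepressor that binds Smads and whose gene TGF-beta induces) was 2.96-fold higher in LT-HSC. It read 1225 and 1384 on LT-HSC arrays, against 535 and 284 on ST-HSC arrays, with no overlap. The log2 means were 10.27 ± 0.15 in LT-HSC and 8.71 ± 0.66 in ST-HSC (SD, n = 2 each), with a difference of 1.56 (SE 0.35, adjusted p = 0.0343). Its second, dimmer probe set read 43.8 and 34.8 on LT-HSC arrays, against 11.4 and 8.06 on ST-HSC arrays, and it did not pass (adjusted p = 0.0622). Its ST-HSC readings were close to the lower quartiles of those arrays (10.2 and 11.0), so no size is given for it. Skil did not pass with LT-HSC replicate 1 left out (adjusted p = 0.252), with LT-HSC replicate 2 left out (adjusted p = 0.235) or in eBayes without an intensity trend (adjusted p = 0.0525). The plasma and B cell markers given above were higher on the same LT-HSC arrays, and their part in the Skil difference was not tested.

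None of the other 6 tested feedback genes and inhibitors passed, and Smad6 was too dim. With Skil, 1 of 7 passed (14.3%), the same share as over all genes (14.3%). Smad7, the inhibitory Smad of both branches, read 25.7 and 71.3 on LT-HSC arrays, against 110 and 54.1 on ST-HSC arrays, with overlapping groups (difference -0.50, SE 0.40, 95% interval -1.45 to 0.45, adjusted p = 0.437). Its second probe set lay at -0.70 (adjusted p = 0.199). Smad6, the inhibitory Smad of the BMP branch, gave 4.97 and 5.31 on LT-HSC arrays, against 38.6 and 25.4 on ST-HSC arrays. With no filter its difference was -1.02 (SE 0.30, adjusted p = 0.0962). The LT-HSC readings lay below the lower quartiles of those arrays (6.02 and 11.2), so this size is uncertain. Bambi, a decoy receptor without a kinase, read 34.7 and 67.2 on LT-HSC arrays, against 104 and 93.8 on ST-HSC arrays (difference -0.68, SE 0.31, adjusted p = 0.195). Pmepa1, a TGF-beta-induced membrane protein that sequesters receptor Smads, read 43.0 and 30.3 on LT-HSC arrays, against 20.5 and 16.9 on ST-HSC arrays (difference 0.71, SE 0.35, adjusted p = 0.225). Ski, the relative of Skil, lay at -0.27, and the ubiquitin ligases Smurf1 and Smurf2 at 0.44 and -0.30. The 2 other tested probe sets of Smurf2 lay above 0, at 0.50 and 0.53.

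Of the anchors and cofactors, Zfyve16 (endofin, an endosomal Smad anchor) lay at -0.72 and Tgif2, a nuclear corepressor, at -0.66, and neither passed. Zfyve9 (SARA, which presents Smad2 and Smad3 to the receptor) read 16.9 and 44.4 on LT-HSC arrays, against 4.14 and 8.26 on ST-HSC arrays. It was too dim for the test, and with no filter its difference was 1.12 (SE 0.32, adjusted p = 0.086). The ST-HSC readings lay below the lower quartiles of those arrays (10.2 and 11.0), so this size is uncertain. Tgfb1i1 (Hic-5, a focal adhesion adaptor) read at most 12.8 on any array and was not tested. In all, 8 of the 36 genes were below the limit for testing. With no filter none of these 8 passed in limma (0 of 8, against 7.88% of all genes, smallest adjusted p = 0.086).

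**Figure D3:**
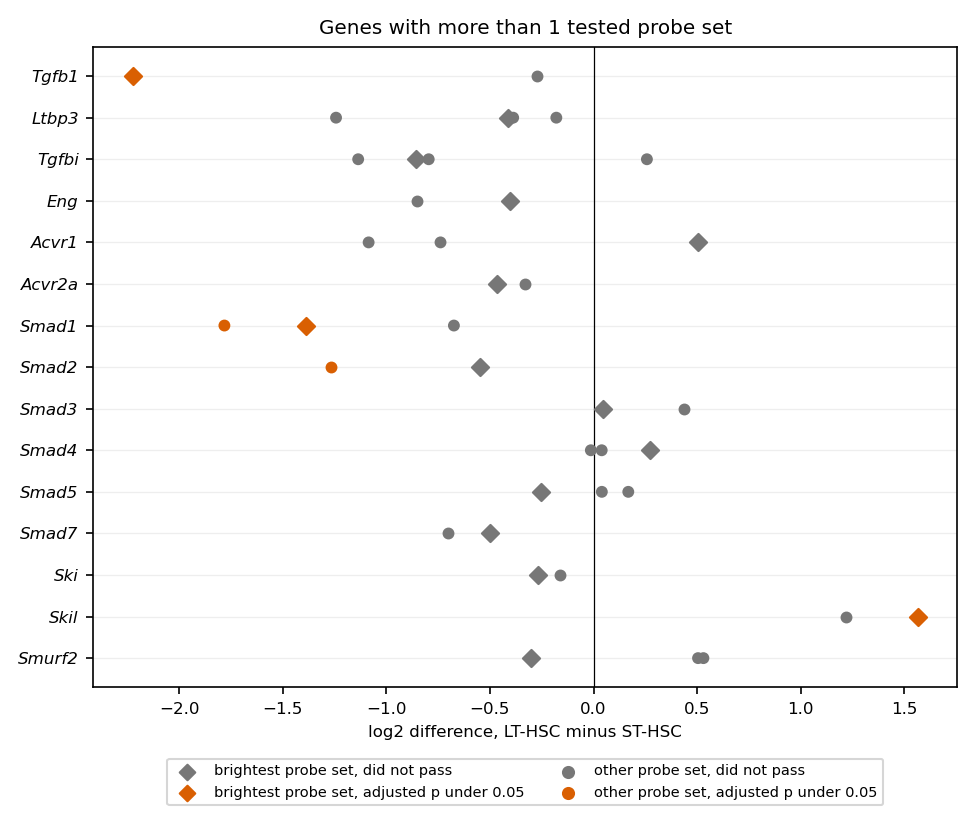
Log2 difference, LT-HSC minus ST-HSC, of every tested probe set of the 15 pathway genes that had more than 1. Diamonds are the brightest probe set of each gene and orange marks an adjusted p under 0.05. All probe sets of Tgfb1, Smad1, Smad2 and Skil lie on 1 side of 0, while those of Acvr1, Tgfbi, Smad4, Smad5 and Smurf2 lie on both.

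The 36 genes had 52 tested probe sets, of which 5 passed (9.62%, against 12.2% of all tested probe sets). The 5 belonged to Smad1 (2), Tgfb1, Smad2 and Skil. Of the 15 genes with several tested probe sets, 10 had all on the same side of 0 and 5 on both sides. The files used here do not say which transcript each probe set reads.

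The promoters of the 2 genes that were lower in LT-HSC, Tgfb1 and Smad1, and that of Smad6, whose product inhibits Smad1 signalling, are shown because all 3 read lower on both LT-HSC arrays, Smad6 without a test. Each is the RefSeq window in GRCm38.p6 from 250 bases before to 50 after the annotated start, written 5′ to 3′ on the gene's strand, with GC boxes (GGGCGG or its complement CCGCCC, which Sp1-type factors bind) in capitals. In Smad6 the Smad-binding palindrome GTCTAGAC is in capitals too. They are Tgfb1 at chr7:25686752-25687051 on the plus strand, Smad1 at chr8:79399379-79399678 on the minus strand and Smad6 at chr9:64022010-64022309 on the minus strand.
Tgfb1: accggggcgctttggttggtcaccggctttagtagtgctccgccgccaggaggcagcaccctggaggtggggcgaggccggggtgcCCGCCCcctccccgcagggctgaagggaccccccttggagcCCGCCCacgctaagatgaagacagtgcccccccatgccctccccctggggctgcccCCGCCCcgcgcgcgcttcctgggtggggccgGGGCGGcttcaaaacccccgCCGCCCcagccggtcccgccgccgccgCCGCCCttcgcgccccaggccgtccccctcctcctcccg
Smad1: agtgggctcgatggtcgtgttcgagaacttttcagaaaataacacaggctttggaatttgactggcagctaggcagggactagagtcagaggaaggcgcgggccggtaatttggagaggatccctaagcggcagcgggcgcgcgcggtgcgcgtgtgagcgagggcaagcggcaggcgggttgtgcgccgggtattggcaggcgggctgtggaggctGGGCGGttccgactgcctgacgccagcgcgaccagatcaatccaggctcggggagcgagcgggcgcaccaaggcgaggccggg
Smad6: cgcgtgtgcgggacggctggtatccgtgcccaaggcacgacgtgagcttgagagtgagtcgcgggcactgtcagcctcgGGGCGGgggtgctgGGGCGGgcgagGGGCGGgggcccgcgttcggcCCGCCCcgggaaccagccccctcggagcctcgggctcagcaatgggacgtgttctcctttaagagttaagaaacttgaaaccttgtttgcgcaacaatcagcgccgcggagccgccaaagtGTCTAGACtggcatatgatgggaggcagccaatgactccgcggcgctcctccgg

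The Tgfb1 window held 6 GC boxes, Smad1 held 1 and Smad6 held 4, and their GC contents were 77.0%, 65% and 66.3%. The palindrome GTCTAGAC lay across the annotated start of Smad6 and was found in 0.213% of all 32851 windows and in no other of the 30 windows of the 26 pathway genes with an entry. The short Smad element CAGAC, searched on both strands, was in none of the 3 sequences shown (0), in 13 of the 30 pathway windows (43.3%) and in 49.6% of all windows. The BMP-type GC element GGCGCC, which reads the same on both strands, was in 9 of the 30 (30.0%) and in 11.9% of all windows. The GC box, searched on both strands, was in 20 of the 30 (66.7%) and in 35.7% of all windows, and it can share bases with GGCGCC. These matches are descriptions of sequence, and base composition differs between promoters.

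Outside the 37 symbols, 86 further genes of the pathway were listed by role, of which 81 had a probe set and 60 were tested. LT-HSC had 5 of them higher and 1 lower, and 54 did not pass, which is 10% against the 14.3% of all genes. The median log2 difference of the 60 was 0.03. An unadjusted p under 0.05 was reached by 18 of the 60, against 33.1% of all genes.

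The largest of these was Bmp6, a BMP ligand known for inducing hepcidin in the liver, which was higher in LT-HSC. It read 160 and 168 on LT-HSC arrays, against 10.1 and 14.0 on ST-HSC arrays (difference 2.80, SE 0.30, adjusted p = 0.0032), and the groups were far apart. The ST-HSC readings lay below the medians of their arrays (26.9 and 25.9), so the size of the difference depended on the pseudocount: it was 3.88 with a pseudocount of 1 and 1.65 with one of 64. Bmp6 passed with both pseudocounts, and its difference lay between 2.69 and 2.91 with any single array left out. Inhbb, the activin B subunit, read 195 and 177 on LT-HSC arrays, against 52.6 and 51.5 on ST-HSC arrays, with both pairs tight and apart. Its difference was 1.67 (SE 0.31, adjusted p = 0.0194), and its second probe set did not pass (adjusted p = 0.0765). That probe set read 5.68 and 9.53 on ST-HSC arrays, below their lower quartiles (10.2 and 11.0), so no size is given for it. The LT-HSC arrays with high Bmp6 and Inhbb were those with the high plasma and B cell marker sums, whose part in these differences was not tested. Inhbb did not pass with LT-HSC replicate 1 left out (adjusted p = 0.196) or LT-HSC replicate 2 left out (adjusted p = 0.124). No receptor, extracellular regulator, Smad partner or cytoplasmic regulator outside the 37 passed in limma (0 of 4, 0 of 7, 0 of 10 and 0 of 20 tested). An unadjusted p under 0.05 was seen for 1, 0, 2 and 4 of them. Of all genes, 14.3% passed and 33.1% had an unadjusted p under 0.05.

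Of 13 tested genes that TGF-beta or BMP often regulate, LT-HSC had 3 higher and 1 lower, and 9 did not pass (30.8% called, against 14.3% of all genes). An unadjusted p under 0.05 was reached by 9 of the 13, against 33.1% of all genes. The list was chosen with earlier results of these data known, so these shares describe the listed genes and test nothing. Cdkn1a (p21, an inhibitor of cyclin-dependent kinases) read 309.5 and 247 on LT-HSC arrays, against 74.8 and 27.3 on ST-HSC arrays (difference 2.35, SE 0.40, adjusted p = 0.0154). A second Cdkn1a probe set was too dim to be tested. Its groups overlapped, with 7.62 and 11.9 on LT-HSC arrays, against 12.8 and 6.54 on ST-HSC arrays. Gadd45b, a stress gene that TGF-beta induces, read 709 and 657 on LT-HSC arrays, against 176 and 98.0 on ST-HSC arrays. Its difference was 2.27 (SE 0.32, adjusted p = 0.00806). Another Gadd45b probe set also passed at 2.11 (adjusted p = 0.0145). A dimmer one had overlapping groups and did not pass (difference 0.79, adjusted p = 0.439). Junb, an immediate early factor, read 3051 and 2512 on LT-HSC arrays, against 1022 and 514 on ST-HSC arrays (difference 1.71, SE 0.36, adjusted p = 0.0298). On the brightest probe sets of Cdkn1a, Gadd45b and Junb the groups were apart, and ST-HSC replicate 3 was the lowest array. The LT-HSC arrays, high in these genes, also had the high plasma and B cell marker sums, whose part was not tested. Myc, which TGF-beta is known to repress, read 134 and 116 on LT-HSC arrays, against 443 and 598 on ST-HSC arrays (difference -1.86, SE 0.31, adjusted p = 0.0154). The part of the plasma and B cell markers in the Myc difference was not tested either. Of the 13 genes, 8 lay above 0 and 5 below. Besides Myc, those below were Klf10 (-0.77), Tsc22d1 (-0.70), Ccn2 (-0.91) and Hpgd (-1.06), none of which passed. Cdkn1a, Junb, Gadd45b and Myc also respond to many signals other than TGF-beta. None of the 4 passed with LT-HSC replicate 1 or LT-HSC replicate 2 left out, and Junb did not pass in eBayes without an intensity trend (adjusted p = 0.053).

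**Figure D4:**
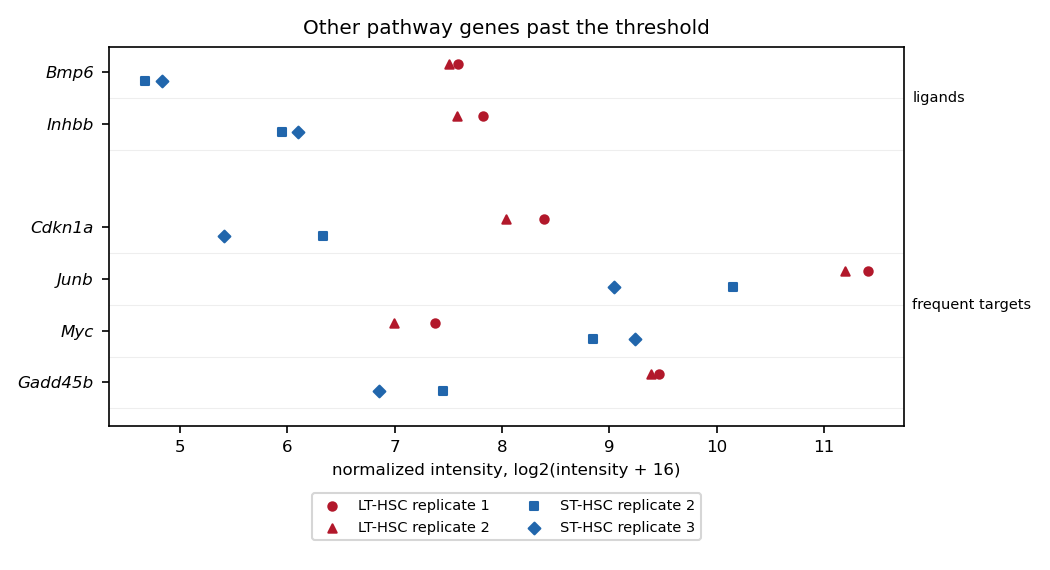
Normalized intensity, log2(intensity + 16), on the 4 arrays of the 6 further pathway genes that passed, with LT-HSC arrays in red above and ST-HSC arrays in blue below in each row. Bmp6, Inhbb, Cdkn1a, Junb and Gadd45b have both LT-HSC points to the right, and Myc has them to the left.

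Which arrays entered the fit changed more of these calls than the settings did. Skil, Smad1 and Tgfb1 passed with the arrays median-centred, with no normalization between arrays, with no filter or a stricter one, with pseudocounts of 1 and 64, with robust eBayes and with probe sets averaged. None of the 3 passed without LT-HSC replicate 1 or LT-HSC replicate 2, where 240 genes passed in all. Without ST-HSC replicate 2, 7 of 29 tested pathway genes passed (24.1%, against 37.2% of all genes), and without ST-HSC replicate 3, 9 of 29 (31.0%, against 27.6% of all genes). The 3 arrays left without ST-HSC replicate 3 share the age of 7.5 weeks and the gap of 4 weeks. In both fits Skil lay above 0 and Smad1, Tgfb1 and Bmpr2 below. With 1 ST-HSC array the spread comes from the LT-HSC pair alone, so passing in these fits adds no support.

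**Figure D5:**
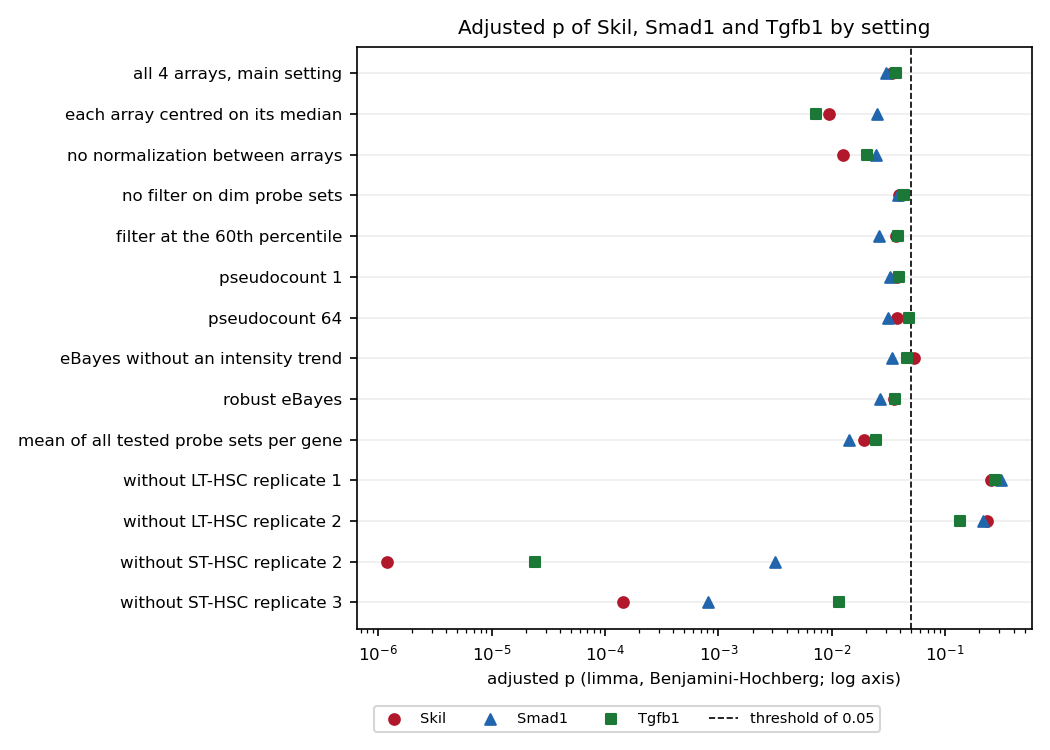
Adjusted p (log axis) of Skil, Smad1 and Tgfb1 in the main setting and under each alternative, with the threshold of 0.05 as a dashed line. All 3 lie right of the line without LT-HSC replicate 1 or 2, and Skil also lies right of it without an intensity trend.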

How the data were processed

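RNA of sorted cells was measured on 4 Affymetrix mouse arrays. The full genotype of the mice is not reported here. Sorted cells gave Trizol-purified RNA that went through 2 amplification rounds and biotin labelling, per the labels' protocols. The deposited values are linear intensities, 1 for each probe set on each array; the summarising software, and whether arrays were scaled, is not given in the sources used here. Of 45101 probe sets, 64 controls were left out. Array medians spanned 0.33 on the log2(intensity + 16) scale, above a limit of 0.2, so the log2 values were quantile normalized. Probe sets above the 40th percentile of mean intensity (27022) were tested with limma 3.58.1 in R 4.3.3 (lmFit, eBayes with an intensity trend, 2 residual and 4.84 prior degrees of freedom), with Benjamini-Hochberg adjustment over all of them.

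Probe sets were named from the supplied platform annotation (34945 with 1 symbol, 932 with several, 9160 unnamed; 34741 matched by Entrez identifier in RefSeq, 0 symbols updated). A gene was read from its brightest probe set. The named genes are the 37 symbols, the other pathway genes that passed (at most 8 a direction) and sort markers. The members and lists were chosen with earlier results of these data known. With 2 arrays against 2, an exact permutation test cannot go below p = 0.33, so limma alone was used, and the number of arrays limits the precision. The procedure was also run on simulated data with the same spread in every probe set and group. The real arrays differ in this, so that run does not show how accurate the calls are here. Alternatives changed the normalization, filter, pseudocount, spread model, probe set rule and threshold, and left out each array in turn. No 2 arrays held the same values (correlation of normalized values 0.96 in LT-HSC and 0.94 in ST-HSC).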

Additional observations from a re-analysis of the deposited data

How the results depend on the processing

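No paired analysis was possible because the groups share only 1 replicate number, replicate 2. Leaving out an array leaves 1 sample in its group, which limma assumes to vary like the other group. It also repeats the filter and the choice of the brightest probe set. Without LT-HSC replicate 2, Acvr2a was therefore read from its other probe set, which gave the value of 0.072 below. With 1 array left out at a time, all genes called ranged from 240 to 4818 (1838 with all 4 arrays), pathway genes higher from 0 to 4 (1) and lower from 0 to 8 (2), other pathway genes higher from 1 to 13 (5) and lower from 0 to 11 (1), and the median difference of pathway genes from -0.52 to -0.13 (-0.35). At a threshold of 0.1, 3069 genes passed in all (23.9%), with 8 of the 60 other pathway genes higher and 6 lower. Without an intensity trend 0 pathway genes were higher. Other pathway genes lower numbered 2 with median-centred arrays, 2 with the filter at the 60th percentile and 5 with probe sets averaged. The cause was not tested. Directions reversed for Tgfbr3 with median-centred arrays (0.072), and with probe sets averaged for Acvr1 (-0.44) and Smurf2 (0.24). With an array left out, the ranges that crossed 0 were -0.20 to 0.82 for Inhba, -1.45 to 0.62 for Ltbp3, -1.08 to 0.84 for Tgfbr3, -0.010 to 1.03 for Acvr1, -0.63 to 0.072 for Acvr2a, -0.40 to 0.52 for Smad3, -0.14 to 0.72 for Smad4 and -0.60 to 0.11 for Smad5.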

Other observations

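Some pathway genes outside the 37 lay close to the threshold; they were chosen after their values were seen. Zeb2, a Smad-binding repressor of haematopoietic cells, read 40.1 and 85.1 on LT-HSC arrays, against 280 and 151 on ST-HSC arrays (difference -1.45, SE 0.38, adjusted p = 0.0542). Id2, an inhibitor of E proteins that BMP induces, read 472 and 517 on LT-HSC arrays, against 28.5 and 187 on ST-HSC arrays (difference 2.45, SE 0.68, adjusted p = 0.0611). Both LT-HSC arrays lay above both ST-HSC arrays for Id2, but the ST-HSC arrays differed widely. On the normalized log2 scale they read 5.40 and 7.67, against 8.93 and 9.05 on LT-HSC arrays. Fkbp1a (FKBP12, which guards the type I receptor) read 2274 and 1664 on LT-HSC arrays, against 2456 and 2924 on ST-HSC arrays (difference -0.76, SE 0.21, adjusted p = 0.0596). Neo1 (neogenin, a co-receptor for BMP through the repulsive guidance molecules) read 104 and 57.3 on LT-HSC arrays, against 34.3 and 7.18 on ST-HSC arrays. Its difference was 1.58 (SE 0.50, adjusted p = 0.0843). The reading on ST-HSC replicate 3 lay below the lower quartile of that array (11.0), so this size is uncertain. Hes1 (difference 1.07, adjusted p = 0.074) and Tgif1 (difference -0.99, adjusted p = 0.0838) lay nearer to the threshold than Neo1.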
